A study of Mus musculus with 96 samples.

Results

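The epidermal differentiation complex is a cluster of genes on mouse chromosome 3 that encodes proteins of the outer skin layers. The group described here was chosen by gene name: identifiers beginning with Lce or with Sprr and a digit, S100a followed by a number, and Lor, Ivl, Flg, Flg2, Hrnr, Rptn, Tchh, Tchhl1, Crnn, Crct1 and Lelp1. It held 59 of the 22497 genes in the tables. These were 20 late cornified envelope genes (Lce), 15 small proline-rich genes (Sprr), 14 S100a genes, 6 fused-type S100 genes (Flg2, Hrnr, Rptn, Tchh, Tchhl1 and Crnn), and Lor, Ivl, Crct1 and Lelp1. Flg was not analysed here. All 59 lay on chromosome 3 between positions 90511034 and 93564643 of GRCm38 (mm10) in the GENCODE M21 annotation, with S100a1 at the proximal end and S100a10 at the distal end. Gene-level values are given for the 19 members whose mean log2 RPKM (reads per kilobase of transcript, scaled to the library's total) was 0 or more in at least 1 genotype.

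RNA was sequenced from the dispase-separated back-skin epidermis of 8-week-old female C57BL/6 mice held in constant darkness for 156 to 176 h. There were 4 genotypes, 6 circadian times (CT0 to CT20, spaced by 4 h) and 4 mice per time, giving 24 libraries per genotype and 96 in all. Arntl, which encodes the clock transcription factor BMAL1, was either normal or carried a stop cassette that Cre recombinase removes. The 4 genotypes thus differed in where Arntl could be expressed. WT mice were Arntl wt/wt with K14Cre wt/tg and Syt10-Cre tg/wt. The other groups were Arntl stopFL/stopFL. RERE mice carried K14Cre tg/wt, expressed in keratinocytes, and Syt10-Cre tg/wt, expressed in the brain clock. EpiRE mice carried K14Cre tg/wt without Syt10-Cre, and BRE mice carried Syt10-Cre tg/wt without K14Cre. BRE was therefore the group in which epidermal Arntl was not restored and also the group with no K14Cre transgene, and these 2 features cannot be told apart.

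As background, keratinocytes leave the basal layer, stop dividing and build a cornified envelope beneath the plasma membrane. Involucrin (Ivl) forms an early scaffold, loricrin (Lor) and the small proline-rich proteins are added and crosslinked by transglutaminases, and late cornified envelope proteins join near the surface. Fused-type S100 proteins such as profilaggrin, filaggrin-2 (Flg2) and hornerin (Hrnr) are stored in granules and processed in the outermost living layer, whereas trichohyalin (Tchh) is known chiefly from the inner root sheath of the hair follicle. S100a proteins are small calcium-binding proteins.

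Library depth was 11.08 to 19.89 M reads with a median of 15.2 M. The mean Arntl level was 3.88 log2 RPKM in WT and 3.88 in BRE. Its SD over 24 libraries was 0.83 in WT but 0.14 in BRE, so the means of these groups were alike and their spread was not. EpiRE, with an SD of 0.31 around a mean of 4.16, also spread less than WT. The SD of RERE was 0.78 around a mean of 3.89. A low SD thus does not by itself mark the group without restored epidermal Arntl. The basal and suprabasal keratinocyte markers were high in every group, while the 6 fibroblast, 4 endothelial and 4 muscle markers each had a mean below 0 log2 RPKM in every genotype. Libraries also differed in how long and short transcripts were represented. This was summarised as a length index, the median log2 deviation of the 1100 longest genes minus that of the 1099 shortest, with the group members left out. It ran from -0.67 to 0.20 over the 96 libraries. In 9 libraries it was under -0.3: 5 WT libraries (2 at CT0, 2 at CT4 and 1 at CT8), 2 RERE libraries at CT0, and 2 EpiRE libraries (CT0 and CT8). No BRE library was that low, and the results that follow are also given without these 9 libraries or with the index as a covariate where that matters.

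Of the 19 members, 5 S100a genes had the highest levels in WT. S100a11 had the highest mean in WT, at 10.01 ± 0.17 log2 RPKM (SD, n = 24), and its 24 WT libraries ran from 9.77 over a median of 9.98 to 10.46. S100a10, the partner of annexin A2, followed at 8.81 ± 0.22, and S100a14 at 8.36 ± 0.22. Each of these neighbours in the order was separated by more than either SD. S100a16 at 7.73 ± 0.23 and S100a6 at 7.67 ± 0.35 were not, nor were S100a4 at 4.72 ± 0.52 and S100a13 at 4.37 ± 0.28. S100a1 averaged 3.29 ± 0.38 (SD, n = 24). Of the sequence words of 50 bases in the annotated transcripts of S100a11, 41.1% also occurred in 3 other annotated genes, and of those of S100a4, 47.4% also occurred in the overlapping gene model Gm42674. The share was 19.9% for Lce1a1, with other Lce1 genes among those sharing its words, and 0.48% for Ivl. The levels of these genes are uncertain for that reason, and by how much was not tested.

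Among the structural genes, Sprr1a was highest in WT at 5.91 ± 0.50 log2 RPKM (SD, n = 24), followed by Ivl at 5.29 ± 0.56, Lor at 3.87 ± 0.53 and Flg2 at 3.54 ± 0.84. Sprr4 averaged 3.31 ± 1.12 and spread most, from -0.43 to 5.24. Tchh averaged 1.70 ± 0.31, Crct1 (cysteine-rich C-terminal 1) 1.59 ± 0.52 and Hrnr 0.55 ± 0.79. The 3 late cornified envelope genes above the floor were close together in WT: Lce1a1 and Lce6a at 1.01 and Lce1m at 0.37 log2 RPKM. The residual SD of the 19 members in the comparison of BRE with WT had a median of 0.40 on the log2 scale, beside 0.16 for all 11016 genes tested there.

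**Figure D1:**
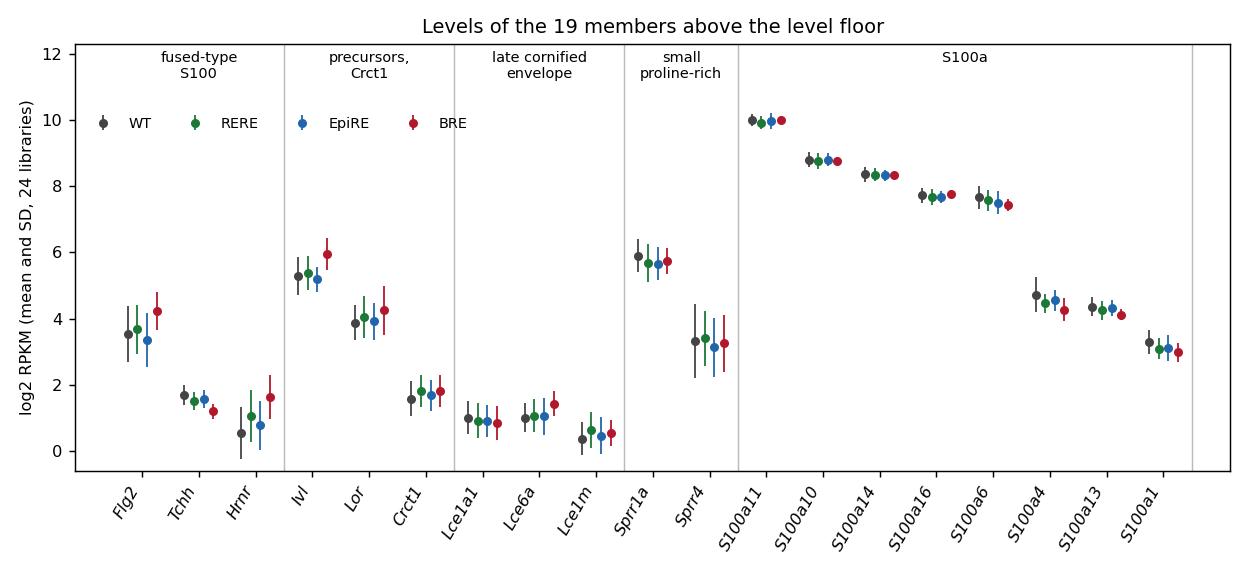
Mean log2 RPKM (vertical axis) of the 19 members by role, with bars showing the SD over the 24 libraries of each genotype. The S100a genes reached 10.01 for S100a11, the 3 late cornified envelope genes lay near 1 or below in WT, and the red BRE points sat above the others for Hrnr, Flg2 and Ivl.

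The other 40 members were below the floor. Their reads summed over all 96 libraries had a median of 37.5 and ran from 0 to 1399. Lce3b, Lce3d, Lce3e and Sprr3 had 0 reads in the whole series. The inflammation-associated alarmin genes S100a8 and S100a9, whose products form calprotectin, had 278 and 179 reads in total. Sprr1b was the closest below the floor, with -0.04 as its highest genotype mean, and Lce1b followed at -0.20. The closest above it were Lce1m at 0.64 and Lce1a1 at 1.01. By role, 17 of 20 Lce, 13 of 15 Sprr, 6 of 14 S100a and 3 of 6 fused-type S100 genes were below the floor, as was Lelp1.

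The comparison of BRE with WT set mice without restored epidermal Arntl against mice with normal Arntl. In BRE the stop cassette also stayed in place in tissues without Syt10-Cre, so epidermal Arntl was not the only difference between these groups. Hornerin, filaggrin-2, involucrin and Lce6a were higher in BRE, by 2.13, 1.62, 1.59 and 1.34 times on the means of log2 values. Trichohyalin and 4 S100a genes were lower. Of the 19 members, 4 were higher and 5 lower at a Benjamini-Hochberg adjusted p under 0.05 (limma, genotype beside CT as a factor, 48 libraries). Over all genes tested, 12.5% were higher and 24.4% were lower. The median difference of the 19 members was -0.02 on the log2 scale, and that of all genes -0.05. The values of each genotype came from a table made separately; limma-voom on the reads recovered from them, in a joint fit, called the same 9 members. In bulk tissue, fewer cells of a type and less RNA per cell cannot be told apart.

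Hrnr had the largest difference among the members. Its level in WT ran from -1.48 over a median of 0.69 to 1.54 log2 RPKM, and in BRE from 0.39 over 1.70 to 3.15. The ranges overlapped, but 14 of 24 BRE libraries lay above every WT library and BRE was higher in mean at 6 of 6 times. The difference was 1.09 ± 0.18 (SE, log2) with an adjusted p of 8.74e-06 (limma), and 12 of 12 alternative analyses called it, with adjusted p from 5.83e-07 to 0.000373.

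Flg2 ran from 1.26 over a median of 3.78 to 4.57 log2 RPKM in WT and from 3.42 over 4.16 to 5.65 in BRE. The highest BRE libraries exceeded the highest WT library in 8 cases, and no BRE library was as low as the lowest WT libraries. The difference was 0.69 ± 0.19 (SE, log2; adjusted p = 0.00405, limma), with 0.48 ± 0.17 (adjusted p = 0.0327, limma) when the 9 libraries of low length index were left out.

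Ivl ran from 3.75 over 5.38 to 5.99 log2 RPKM in WT and from 4.98 over 6.06 to 6.79 in BRE, where 15 of 24 libraries lay above the WT range. The difference was 0.67 ± 0.13 (SE, log2; adjusted p = 6.07e-05, limma). BRE was higher at 5 of 6 times, and at the remaining time the means differed by less than 0.01. Lce6a, the late cornified envelope gene called in the reported fit, had a median of 0.99 in WT and 1.45 log2 RPKM in BRE. Its ranges coincided at the top (2.05 and 2.01), and 21 of 24 BRE libraries were above the WT median. Its difference was 0.43 ± 0.11 (SE, log2; adjusted p = 0.00277, limma). Lor was 0.38 ± 0.16 higher in BRE and missed the threshold with an adjusted p of 0.0599 (limma), and over the alternatives its adjusted p ran from 0.0161 to 0.222.

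The 200 bases before the RefSeq start of these 4 genes, of Tchh and of S100a4 are shown because these 6 had the largest differences between BRE and WT among the members, each called in 12 of 12 alternatives. RefSeq promoters (build GRCm38.p6) matched 52 of the 59 members by symbol and 16 of the 19 above the floor. Capitals mark matches, on either strand, to the E-box CACGTG bound by BMAL1 with CLOCK, the AP-1 element TGANTCA, the TATA box TATAAA and the nuclear receptor core motif AGGTCA. No pair of these motifs overlapped in the sequences printed.
Hrnr, chr3:93319549-93319748, plus strand: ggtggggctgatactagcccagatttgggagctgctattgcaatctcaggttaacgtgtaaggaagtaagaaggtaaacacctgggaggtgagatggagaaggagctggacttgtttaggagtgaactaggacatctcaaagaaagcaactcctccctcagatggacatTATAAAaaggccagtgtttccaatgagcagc
Flg2, chr3:93197073-93197272, plus strand: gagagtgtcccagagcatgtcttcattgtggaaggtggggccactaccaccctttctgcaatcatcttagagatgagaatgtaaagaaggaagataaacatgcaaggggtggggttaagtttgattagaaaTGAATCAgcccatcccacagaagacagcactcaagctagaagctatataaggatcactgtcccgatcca
Ivl, chr3:92573736-92573935, minus strand: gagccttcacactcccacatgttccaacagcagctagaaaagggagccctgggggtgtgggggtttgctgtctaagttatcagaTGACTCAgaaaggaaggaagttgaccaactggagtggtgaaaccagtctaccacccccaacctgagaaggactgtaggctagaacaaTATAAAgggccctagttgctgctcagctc
Lce6a, chr3:92621661-92621860, minus strand: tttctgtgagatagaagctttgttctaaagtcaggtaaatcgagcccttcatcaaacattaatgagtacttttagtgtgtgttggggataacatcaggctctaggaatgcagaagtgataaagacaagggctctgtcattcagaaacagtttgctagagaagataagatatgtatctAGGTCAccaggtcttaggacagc
Tchh, chr3:93442130-93442329, plus strand: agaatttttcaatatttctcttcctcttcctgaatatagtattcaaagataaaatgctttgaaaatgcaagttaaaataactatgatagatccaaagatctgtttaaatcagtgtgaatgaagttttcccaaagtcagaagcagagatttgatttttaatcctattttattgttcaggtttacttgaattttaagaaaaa
S100a4, chr3:90603570-90603769, plus strand: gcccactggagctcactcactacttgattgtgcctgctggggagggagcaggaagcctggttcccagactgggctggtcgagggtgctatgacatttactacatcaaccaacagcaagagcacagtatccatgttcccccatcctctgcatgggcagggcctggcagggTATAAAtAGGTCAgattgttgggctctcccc
With positions counted back from the start, the TATA box began at -31 in Hrnr, -29 in Ivl and -31 in S100a4. The AP-1 element began at -69 in Flg2 and -116 in Ivl, and AGGTCA at -23 in Lce6a and -24 in S100a4. In Tchh no letters matched any of the 4 motifs. CACGTG occurred in 0 of the 17 promoters of the members above the floor, and in 5.26% of the 32851 promoters in the table. TGANTCA occurred in 6 of the 17, beside 5.48% of all promoters, TATAAA in 6, beside 9.96%, and AGGTCA in 3, beside 11.4%. A match is a description of the letters, and its absence from this window says nothing about a factor.

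On the lower side, Tchh had the smallest adjusted p of the members. It ran from 1.06 over a median of 1.71 to 2.37 log2 RPKM in WT and from 0.86 over 1.23 to 1.62 in BRE. All 24 BRE libraries lay below the WT median, and 8 lay below every WT library. The difference was -0.49 ± 0.07 (SE, log2; adjusted p = 3.74e-07, limma), and its size was -0.55 without the 9 libraries of low length index.

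S100a4, a gene also expressed in immune and mesenchymal cells, ran from 3.86 over 4.64 to 5.80 log2 RPKM in WT and from 3.75 over 4.25 to 5.17 in BRE. The ranges overlapped, and 20 of 24 BRE libraries were below the WT median. Its difference was -0.45 ± 0.11 (SE, log2; adjusted p = 0.000777, limma). S100a1 fell by 0.32 ± 0.08, S100a13 by 0.25 ± 0.06 and S100a6 by 0.23 ± 0.07 on the log2 scale. Without the 9 libraries of low length index, S100a13 was at -0.14 and still called (adjusted p = 0.0228, limma), and S100a6 was at -0.12 and not called (adjusted p = 0.0932, limma). The 4 most abundant members, S100a11, S100a10, S100a14 and S100a16, differed by 0.01, -0.06, -0.02 and 0.03 with SEs of 0.04 to 0.05, and none was called. The count of members called was 12 with the length index as a covariate, which added Crct1, Lor and S100a16, and 11 without the 9 libraries, which added Lce1m (0.34 ± 0.12, adjusted p = 0.0345, limma), Sprr1a (-0.33 ± 0.10, adjusted p = 0.0107, limma) and S100a16 and lost S100a6. S100a16 was called higher with the index as a covariate (0.07 ± 0.02, adjusted p = 0.0043, limma) and without the 9 libraries. The shares of all genes called under these settings are not given here, so the rise in count is not a result about the members.

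**Figure D2:**
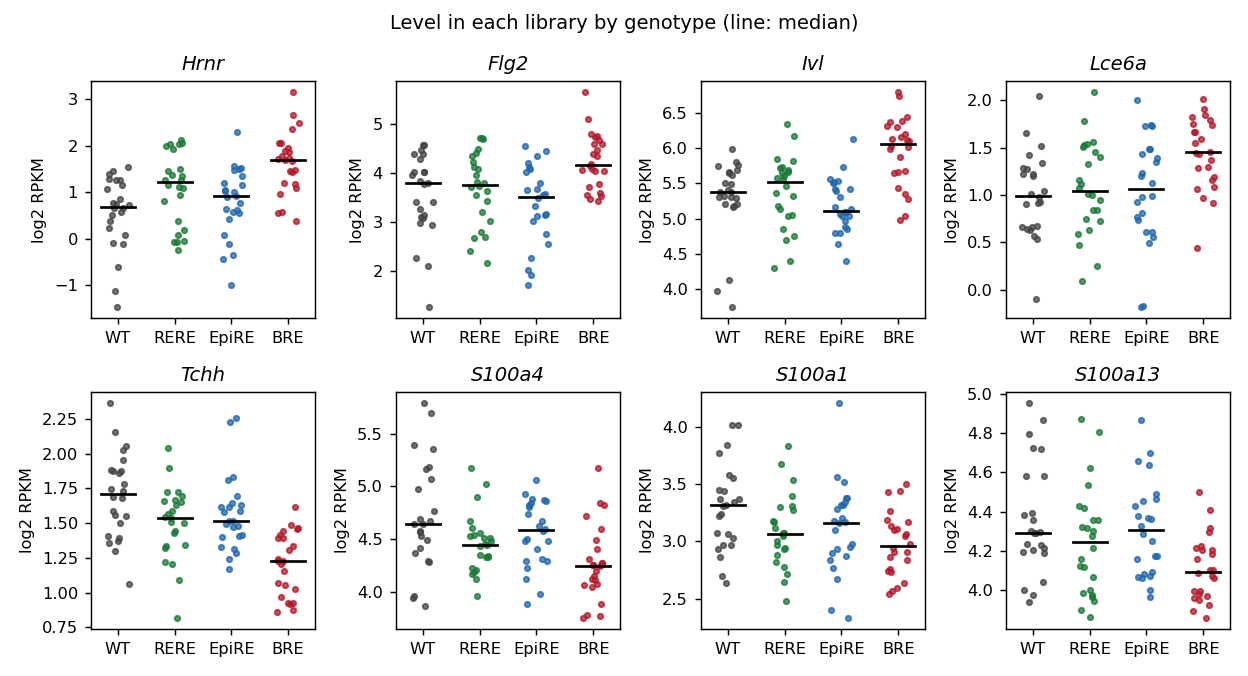
Log2 RPKM of 8 members in each of 24 libraries per genotype, with the median as a line. The BRE medians of Hrnr (1.70), Flg2 (4.16), Ivl (6.06) and Lce6a (1.45) were the highest of the 4 genotypes, and those of Tchh (1.23), S100a4 (4.25), S100a1 (2.96) and S100a13 (4.10) the lowest.

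**Figure D3:**
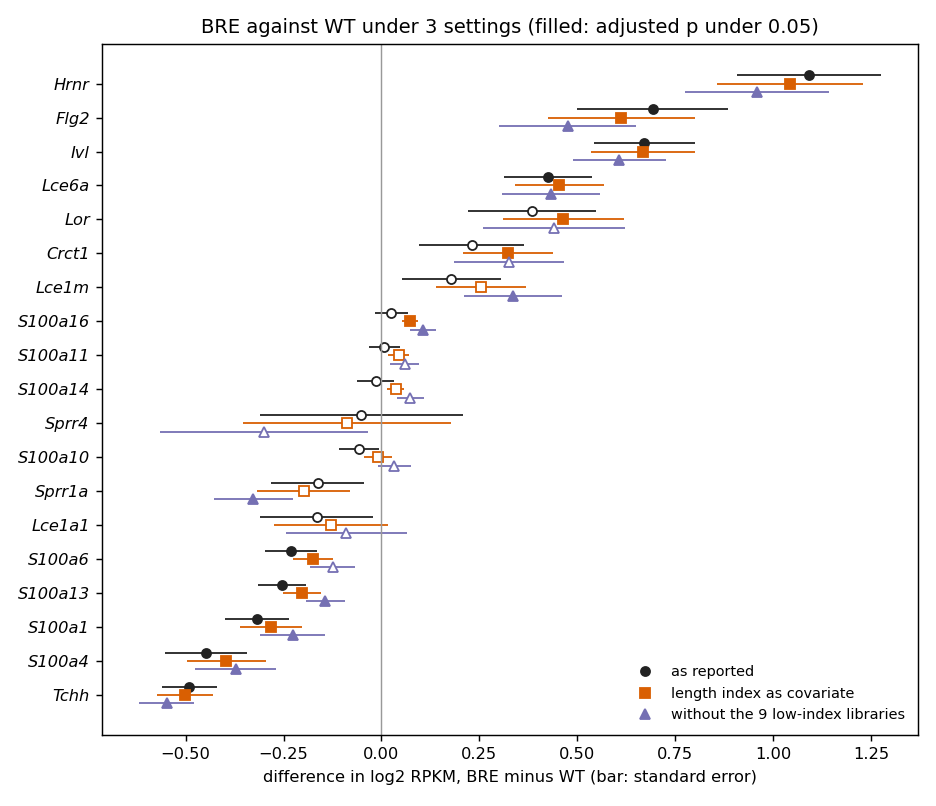
Difference in log2 RPKM between BRE and WT (horizontal axis, bars are SE) of the 19 members in the reported fit, with the length index as a covariate, and without the 9 libraries of low index. Filled symbols have an adjusted p under 0.05; Hrnr, Flg2, Ivl, Lce6a, Tchh, S100a4, S100a1 and S100a13 were filled in all 3.

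Several cell type markers also differed between BRE and WT, where 12.5% of all genes were higher and 24.4% lower. All 6 suprabasal keratinocyte markers (Krt1, Krt10, Krtdap, Dsc1, Dsg1a and Sbsn) were higher in BRE than in WT, with a median difference of 0.36 on the log2 scale. Their summed level ran from 9307 to 15380 RPKM in WT and from 11662 to 19342 RPKM in BRE. Of 6 basal markers, 2 were lower and none higher, and their sum ran from 11912 to 17981 RPKM in WT and from 11576 to 15515 in BRE. Of 5 hair follicle markers tested, 3 were lower in BRE (Sox9, Lhx2 and Cd34), and the summed level ran from 479 to 1263 RPKM in WT and from 495 to 1209 in BRE. The means of these 3 were also lower in RERE and EpiRE than in WT. For Sox9 they were 3.81 and 3.82 log2 RPKM, beside 4.07 in WT. For Lhx2 they were 2.05 and 1.77 beside 2.60, and for Cd34 -0.11 and 0.07 beside 0.77. Of the 12 inner root sheath and hair shaft markers in the tables, 11 had means below 0 log2 RPKM in every genotype, and their sum ran from 2.80 to 19.7 RPKM in WT and from 2.90 to 7.37 in BRE. Of 4 myeloid and Langerhans markers tested, Cd74 was lower. The 3 T cell markers tested went both ways: Cd3e and Cd3g were lower by -0.36 and -0.33, and Thy1 was higher by 0.64 (log2), with a summed level of 18.7 to 104 RPKM in WT and 43.6 to 110 in BRE. Both melanocyte markers tested, Pmel and Dct, were lower, by -0.47 and -0.66. Of 4 sebaceous gland markers tested, Scd1 was higher by 0.18 and Elovl5 was lower by -0.37. The part of these shifts in the members' differences was not tested.

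The other genes of the pathway were compared between BRE and WT in 3 lists, beside 12.5% of all genes higher and 24.4% lower. Of 13 partners of the envelope proteins, 8 were higher and 1 was lower. Corneodesmosin (Cdsn), an adhesive protein of the cornified layers, was higher by 0.58 ± 0.13 and transglutaminase 1 (Tgm1), the enzyme that crosslinks envelope proteins, by 0.44 ± 0.13 (SE, log2). The keratins Krt1, Krt10 and Krt77 were higher by 0.36, 0.35 and 0.33. Krt2, a late suprabasal keratin, went the other way by -1.37 ± 0.12. Of 10 genes of profilaggrin processing tested, 5 were higher and 1 was lower. The filaggrin-cleaving protease Asprv1 was higher by 0.47 ± 0.11, the protease inhibitor Spink5 by 0.41 ± 0.08, the kallikrein Klk5 by 0.36 ± 0.12 and the hydrolase Blmh by 0.29 ± 0.05, whereas the calpain subunit Capns1 fell by 0.13 ± 0.05. Of 19 transcriptional regulators tested, 4 were higher and 7 lower: Grhl3 and Grhl1, grainyhead-like factors of barrier formation, were higher by 0.30 and 0.28, and Cebpb, Junb, Hopx and Maf were lower by -0.37, -0.34, -0.32 and -0.26 on the log2 scale. The lists were chosen with earlier results of these data known, Krt1 and Krt10 are also among the suprabasal markers, and the medians of the 3 lists were 0.25, 0.08 and -0.05, beside -0.05 for all genes.

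The comparisons of RERE and EpiRE with BRE share the BRE libraries with the one above, so their values are given side by side and not as separate support. Hrnr was -0.57 ± 0.16 in RERE and -0.86 ± 0.16 in EpiRE relative to BRE (SE, log2). Flg2 was at -0.55 and -0.88, Ivl at -0.59 and -0.77, and Lce6a at -0.36 and -0.39. Tchh was higher than in BRE by 0.30 in RERE and by 0.36 in EpiRE. These 5 members passed the test in RERE against BRE, 4 lower and 1 higher, where 10.1% of all genes were lower and 17.4% higher. In EpiRE against BRE the 5, with S100a4 (0.28) and S100a13 (0.20), passed, 4 lower and 3 higher, beside 11.1% and 22.9% of all genes. In RERE against BRE the calls of Flg2, Hrnr and Lce6a were lost without replicate 1 or without replicate 2 (adjusted p of 0.0578 to 0.261, limma), and that of Lce6a without replicate 4 too (0.0594). In EpiRE against BRE, Lce6a was lost without replicate 2 or 4 (0.12 and 0.205), S100a4 without replicate 2 (0.0896) and S100a13 without replicate 1 (0.0538), while Ivl and Tchh were called in 12 of 12 alternatives in each comparison.

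Of the 6 suprabasal markers, 5 were lower in RERE than in BRE and 5 in EpiRE than in BRE. Krt1 was not lower: it averaged 11.25 log2 RPKM in RERE, 11.26 in EpiRE and 11.20 in BRE, beside 10.84 in WT. The part of the marker shifts in the members' differences was not tested there either. Of the envelope partners, 9 of 13 differed in RERE against BRE, 3 higher and 6 lower, and 12 of 13 in EpiRE against BRE, 3 higher and 9 lower. Krt2 was 2.57 ± 0.18 and 2.34 ± 0.15 higher than in BRE (SE, log2). Of 10 profilaggrin-processing genes, 1 was higher and 4 lower in RERE, and 1 higher and 5 lower in EpiRE. Of 19 regulators, 4 were higher and 3 lower in RERE, and 5 higher and 3 lower in EpiRE. Over all genes, 17.4% were higher and 10.1% lower in RERE, and 22.9% higher and 11.1% lower in EpiRE. The regulator counts were close to these shares.

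No member differed in level between RERE and WT, EpiRE and WT, or RERE and EpiRE by limma at an adjusted p under 0.05. At an unadjusted p under 0.05 the counts were 4, 1 and 0 of 19, and the share of all genes at that threshold is not given here. With limma-voom on recovered reads 0 were called in each as well. At the adjusted threshold, the shares of all genes called were 0.787% higher and 1.35% lower, 0.931% higher and 1.3% lower, and 0.00906% higher and 0% lower. The widest estimate was for Hrnr in RERE against WT, 0.52 ± 0.19 (SE, log2; adjusted p = 0.163, limma). It was called (0.75, adjusted p = 0.045, limma) without replicate 2 and in none of the other alternatives that tested it. Hrnr in EpiRE against WT was at 0.23 ± 0.19, Flg2 at 0.14 ± 0.21 and -0.19 ± 0.21 in RERE and EpiRE, and Ivl at 0.08 ± 0.13 and -0.10 ± 0.12. In contrast, 3 envelope partners were higher in each restored group than in WT: Krt2 by 1.19 and 0.97, Krt1 by 0.42 and 0.42, and Tgm3, a transglutaminase, by 0.88 and 1.09 on the log2 scale in RERE and EpiRE. Tgm5 was lower in EpiRE by -0.37.

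The time course asked whether the members varied over the circadian day. In WT, 6 of 19 members were rhythmic at an adjusted p under 0.05 (limma F test of a 24 h cosine and sine, 24 libraries), and each was an S100a gene. Over all genes, 33.1% were called. In RERE, 3 of 19 were called (S100a1, S100a14 and S100a6), beside 19.4% of all genes. In EpiRE and BRE 0 of 19 were called, beside 0% and 1.14% of all genes, and at an unadjusted p under 0.05 there were 3 members in each. The members' counts at the adjusted threshold were close to the shares of all genes, so they are not a result about the members. No share of all genes is given at the unadjusted threshold, so neither are the counts there.

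S100a4 had the largest amplitude in WT, 0.50 ± 0.10 (SE, log2; adjusted p = 0.00308, limma), with its peak fitted at CT2.55. Its 4 libraries at CT0 were 5.17, 5.40, 4.64 and 4.97 log2 RPKM and those at CT12 were 4.37, 3.96, 4.29 and 3.94, so the 2 times did not overlap. It was the one member called in WT after the 9 libraries of low length index were left out (0.51 ± 0.10, adjusted p = 0.00628, limma). S100a6 had an amplitude of 0.35 ± 0.07 peaking at CT3.56 (adjusted p = 0.00143, limma). Its libraries at CT4 were 7.76, 7.87, 8.34 and 8.16 and those at CT16 were 7.30, 7.54, 7.44 and 7.30, again without overlap. S100a16 followed with 0.22 ± 0.05 at CT1.62, S100a1 with 0.34 ± 0.08 at CT1.15, S100a13 with 0.23 ± 0.07 at CT1.08 and S100a14 with 0.17 ± 0.05 at CT3.29 (adjusted p of 0.00566 to 0.0403, limma).

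All 6 fitted peaks in WT fell between CT1.08 and CT3.56. The mean length index of the WT libraries was -0.22 at CT0 and -0.20 at CT4, and lay between -0.02 and 0.08 at the other times. With the index as a covariate 3 of the 6 were called (S100a16, S100a4 and S100a6), with amplitudes of 0.09, 0.42 and 0.20. S100a14 then had an amplitude of 0.03 (adjusted p = 0.593, limma), S100a13 0.10 and S100a1 0.23. Without the 9 libraries, 1 was called in WT, and S100a6 stood at 0.22 ± 0.06 (adjusted p = 0.0501, limma). In RERE, where the mean index at CT0 was -0.30, 1 was called with the covariate (S100a6, 0.16 ± 0.04) and 3 without the libraries (S100a1, S100a16 and S100a6). The shares of all genes called under these settings are not given here, so the changes in count are not a result about the members.

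In RERE, S100a6 at CT0 was 7.53, 8.35, 8.34 and 7.41 log2 RPKM and at CT20 was 7.36, 7.45, 7.16 and 7.19. The 2 high values at CT0 were replicates 2 and 3, the 2 RERE libraries of low length index. Its amplitude was 0.25 ± 0.07 at CT3.86 (adjusted p = 0.0475, limma). S100a1 had 0.29 ± 0.07 at CT1.79 (adjusted p = 0.0138, limma) and S100a14 0.17 ± 0.05 at CT1.49 (0.0381). S100a4 had 0.18 ± 0.07 (adjusted p = 0.154, limma), beside 0.50 in WT. Leaving out replicate 2 or 3 left 0 calls in RERE, and leaving out replicate 1 or 4 left 1 and 2.

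**Figure D4:**
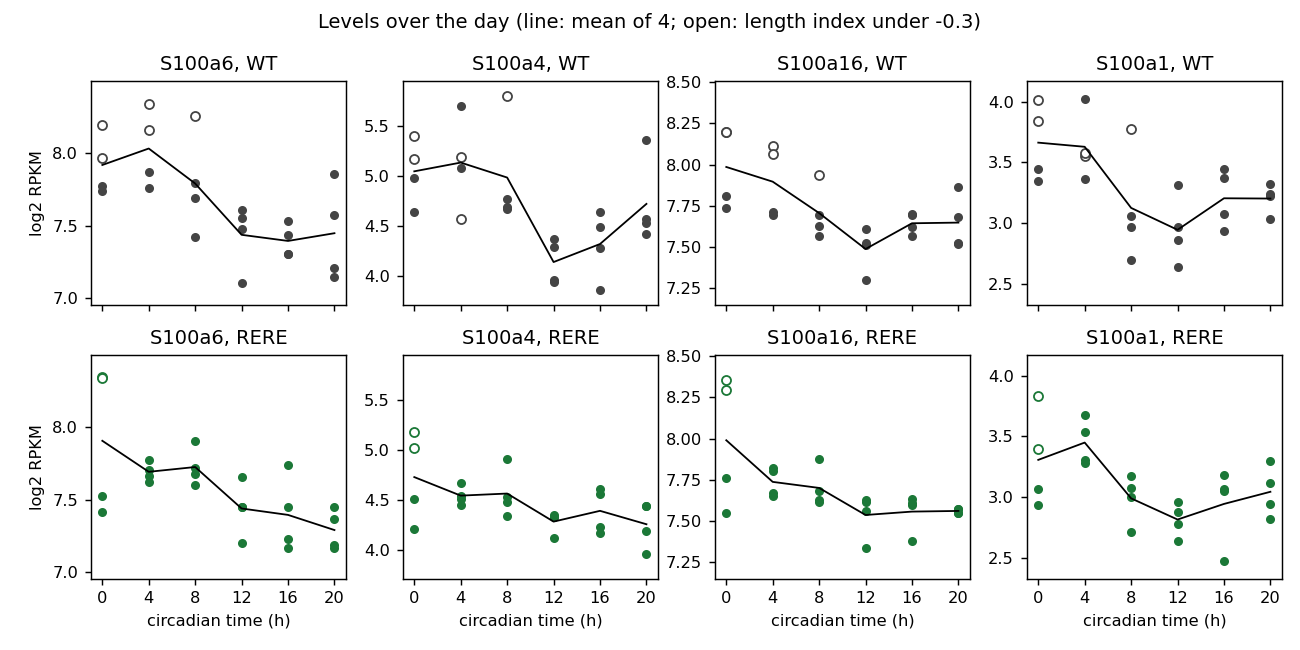
Log2 RPKM of S100a6, S100a4, S100a16 and S100a1 by circadian time in WT and RERE, with 4 libraries per time and their mean as a line. The open circles, libraries with a length index under -0.3, lay at CT0, CT4 and CT8 in WT and at CT0 in RERE and were among the highest values there for S100a16.

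None of the structural members was called in any genotype by the reported fit. Other settings called some: in WT, Lor under median-of-ratios scaling, with CT as a factor and without replicate 3, Ivl and Tchh under limma-voom, Tchh with the replicate block, and Crct1, Lce1a1 and Tchh without replicate 1. With CT as a factor Hrnr was called in RERE and Flg2 in EpiRE. Ivl in WT had an amplitude of 0.40 ± 0.13 (SE, log2; adjusted p = 0.0578, limma), Lor 0.39 ± 0.13 (0.0533) and Tchh 0.23 ± 0.08 (0.0559), each close to the threshold, and Flg2 and Hrnr 0.37 ± 0.22 and 0.40 ± 0.21 (0.362 and 0.271). For Hrnr the fitted amplitudes in the 3 stop-cassette groups were 0.53 ± 0.19 (RERE), 0.51 ± 0.18 (EpiRE) and 0.48 ± 0.16 (BRE), peaking at CT16.7, CT15.4 and CT14.9 (adjusted p of 0.12, 0.364 and 0.19, limma). In the authors' deposited table of JTK_CYCLE results, 4 members had a q-value under 0.05 in WT (S100a1, S100a16, S100a4 and S100a6), beside 9.72% of all genes, and 0 in RERE, EpiRE and BRE, beside 5.47%, 0% and 0.0133%. In the authors' deposited table of BIOCYCLE results, 0 members passed a q-value of 0.05 in any genotype, beside 4.22% of all genes in WT and 0.947% in RERE.

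The test of a difference in rhythm between genotypes called 0 of 19 members by limma in each of the 6 pairs, while the share of all genes called was 5.69% in BRE against WT, 4.19% in RERE against BRE, 1.57% in EpiRE against WT, 1.05% in RERE against EpiRE, and 0% in RERE against WT and EpiRE against BRE. At an unadjusted p under 0.05 there were 3 members in BRE against WT and at most 1 in any other pair. The share of all genes at that threshold is not given here. With limma-voom on recovered reads 0 were called as well. The call of S100a genes in WT and not in EpiRE or BRE is thus not shown to be a difference between genotypes. Of the pathway genes, 3 of 13 envelope partners (Krt1, Ppl and Tgm3), 3 of 10 processing genes (Capns1, Spink5 and St14) and 4 of 19 regulators (among them Cebpb, Klf4 and Grhl3) were rhythmic in WT, beside 33.1% of all genes, so these counts were at or below the background. Tgm3 had the largest amplitude, 0.89 ± 0.18 at CT7.05 (SE, log2). In RERE, 1 partner, 3 processing genes and 1 regulator were called, beside 19.4% of all genes, and in EpiRE and BRE 0.

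The members also varied together among libraries of the same genotype and time. Deviations from the mean of each of the 24 groups were correlated over 96 libraries, with permutations within groups (100000 draws), for 190 relations among the 19 members and the length index. Of these, 87 had a Benjamini-Hochberg adjusted permutation p under 0.05, and 12 of the 87 were relations with the length index. Other genes were not correlated in this way. The count thus has no background share and does not set the members apart from other genes. Flg2 and Hrnr had the highest r, 0.92 (rho 0.90; permutation p = 1e-05 for each, the smallest the draws can give, and 6.79e-05 adjusted for r), and 0.91 without the 2 libraries with the most extreme Hrnr deviations. Within genotypes it was highest in WT (0.97), followed by RERE (0.94), BRE (0.88) and EpiRE (0.86). Ivl followed both, with r of 0.75 to Flg2 and 0.74 to Hrnr (rho 0.71 and 0.70), and 0.70 and 0.69 without the 2 most extreme libraries. Flg2 went against S100a13 with r of -0.63 (rho -0.59) and against S100a10 with -0.57 (rho -0.53). The length index was not taken out of these deviations. Flg2 correlated positively with it, and S100a13 and S100a10 negatively. The part of the index in these r values was not tested. The 2 small proline-rich genes, Sprr1a and Sprr4, had r of 0.69 (rho 0.72).

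Of the 8 S100a genes, 7 correlated negatively with the length index at an adjusted permutation p under 0.05, and S100a1 did not pass (r of -0.21, adjusted permutation p = 0.241). The short genes of the index have at most 1253.5 bases, and the 8 S100a genes have 499 (S100a4) to 1217 (S100a14). The short genes enter the index with a minus sign, and whether this accounts for the negative r was not tested. Lce6a, with 791 bases, had an r of 0.01. Other genes of like length were not compared, so these values are not a result about S100a genes. S100a16 had r of -0.87 with it (rho -0.88; permutation p = 1e-05 for each, adjusted 6.79e-05 for r) and S100a14 -0.87 (rho -0.83), and -0.84 and -0.86 without the 2 libraries of most extreme index. Within genotypes S100a16 ran from -0.76 in EpiRE to -0.93 in RERE. S100a14 and S100a16 correlated with each other at 0.87 (rho 0.86). Of the 19 members, 12 had an adjusted permutation p under 0.05 with the index, 11 of them negative. Flg2, the gene of filaggrin-2, was the positive one at 0.37 (rho 0.29; adjusted permutation p = 0.0155 for r), but -0.31 within BRE. Ivl, Lce6a and Tchh were at -0.01, 0.01 and -0.02, with unadjusted permutation p of 0.962, 0.9 and 0.862. Hrnr was at 0.29 (adjusted permutation p = 0.0615).

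**Figure D5:**
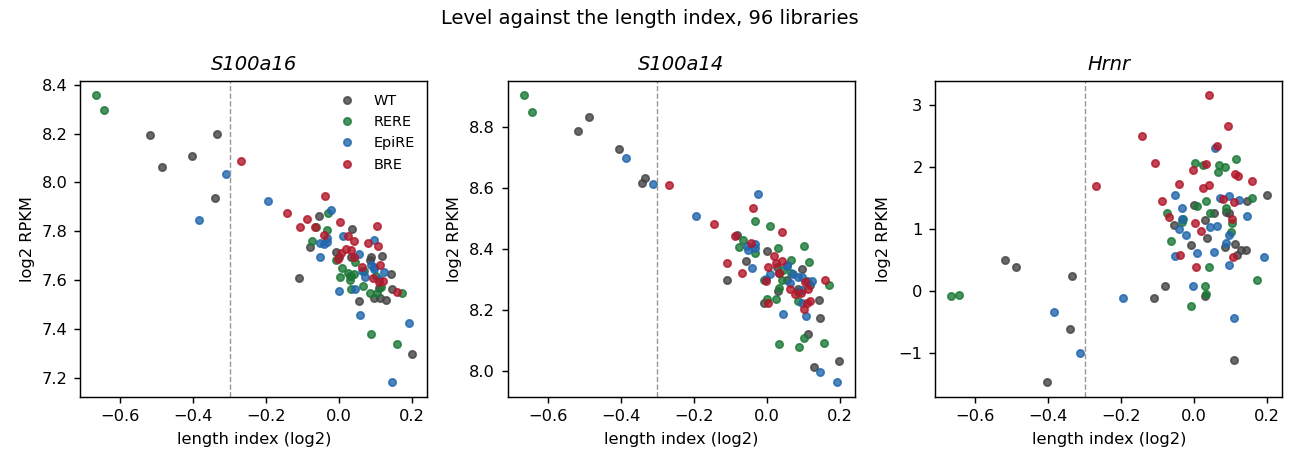
Log2 RPKM of S100a16, S100a14 and Hrnr in each of the 96 libraries against the length index, coloured by genotype; the dashed line is at -0.3. S100a16 and S100a14 fell as the index rose (r of -0.87 for the deviations within groups of each), while the BRE libraries of Hrnr lay high at a like index.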

How the data were processed

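The members and gene lists were chosen with earlier results of these data known. Per the submitters' processing notes, the authors used mm10 with HISAT2 2.2.1, Trimmomatic 0.36, edgeR, featureCounts 1.6.0 and SAMtools 1.3.1 (listed without order). They deposited log2 RPKM values in 1 table per genotype, and p-values and q-values of BIOCYCLE and JTK_CYCLE in the deposited tables. Low values showed that 0.25 reads had been added before the log, and whole reads were recovered for 22474 of 22497 genes (99.86% of values differed from a whole number by under 0.1 read). The tables were made separately, so levels compared between genotypes are set across tables; recovered reads summed to 94.5% to 96.4% of the total each library was scaled by, and a library's scale depended on its own total. A further 96 per-library columns of the JTK_CYCLE tables were not used.

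Genes whose mean over the compared libraries reached 0 log2 RPKM were tested with limma 3.58.1 in R 4.3.3 (eBayes with trend, Benjamini-Hochberg over all genes tested, threshold 0.05): a 24 h cosine and sine per genotype, genotype beside CT, and genotype by cosine and sine. Each library was a separate mouse. The fits were also run on simulated data, whose outcome is not given here. Those values were drawn for each gene on its own, without variation shared between genes such as that of the length index. Members were named if called in a comparison, if among the 3 highest in WT of their role, or if they were Flg2, Hrnr, Lor, Ivl, S100a8 or S100a9; at most 6 called genes per pathway list and comparison were named. Alternatives were a pseudocount of 1 RPKM, no filter, median-of-ratios scaling, a replicate block, CT as a factor or 96 libraries in 1 fit, limma-voom on recovered reads, and each replicate number left out. The length index as a covariate and the omission of the 9 libraries were chosen after seeing the data. The labels and file headers do not say whether UMIs or strand entered the authors' counts. A result on 1 gene of the pathway lists is not reported here.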

Additional observations from a re-analysis of the deposited data

Results flagged for a closer look

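Among 96 groups of 4 libraries checked (the length index in 24 groups and 6 S100a genes in the 12 WT and RERE groups each), 7 held a library far from the other 3; chance flags about 1 in 20 groups. For the length index, BRE CT0 replicate 4 stood at -0.268 beside 0.079 to 0.106 in the other 3, and EpiRE CT20 replicate 3 at 0.123 beside -0.052 to -0.033. S100a4 was at 5.80 log2 RPKM in WT CT8 replicate 4 beside 4.67 to 4.77, at 5.36 in WT CT20 replicate 1 beside 4.41 to 4.57, and at 4.12 in RERE CT12 replicate 2 beside 4.33 to 4.35. S100a14 was at 8.03 in WT CT12 replicate 4 beside 8.30 to 8.33, and S100a16 at 7.38 in RERE CT16 replicate 1 beside 7.60 to 7.64. WT CT8 replicate 4 was also 1 of the 9 libraries of low length index.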

How the results depend on the processing

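With no filter on low values, 1 member was rhythmic in RERE and the level counts were 8 (RERE against WT), 6 (EpiRE against WT), 17 (BRE against WT), 12 (RERE against BRE) and 15 (EpiRE against BRE). Each of these 5 level counts held the 4 members without a read in the series, because the deposited value at 0 reads differed between tables (-5.115 in WT and -5.057 in RERE for Lce3b). Rhythm in RERE had 5 members under median-of-ratios scaling and 5 under limma-voom; CT as a factor called 1 in EpiRE (Flg2), 2 in RERE (Hrnr and S100a10, with S100a1, S100a14 and S100a6 lost) and 5 in WT (Lor gained, S100a13 and S100a14 lost), and median-of-ratios scaling called another rhythm in BRE than in WT for 1 (S100a6). The length index as a covariate left 3 rhythmic members in WT and 1 in RERE, and omission of the 9 libraries left 1 in WT. The cause was not tested, and the shares of all genes called under these settings are not given here. Leaving out 1 replicate number gave 3 to 9 rhythmic members in WT, 0 to 2 in RERE, and level counts of 0 to 1 in RERE against WT, 8 to 9 in BRE against WT, 2 to 5 in RERE against BRE and 5 to 8 in EpiRE against BRE. No shares of all genes are given beside these counts either.

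Of 707 values of named members under the alternatives, 654 stayed on the same side of the threshold, 45 lost the call and 8 gained it. The 707 cover members called in the reported fit and also Flg2, Hrnr, Lor and Ivl in comparisons that did not call them. Values not called in the reported fit could not lose a call, so the 654 do not measure how stable the calls were. Rhythm with CT as a factor gives no amplitude and is not among the 707. None of the called differences in level changed sign. The rhythm amplitudes among the 707 cannot be negative, so the check of sign does not apply to them. The replicate numbers share only a number: deviations of libraries with the same number correlated at a mean of 0.02 across genotypes and 25 of 96 libraries correlated best with their own number. The replicate block gave 6 rhythmic members in WT, 4 in RERE and 10 members of another level in BRE than in WT. The shares of all genes called with the block are not given here, so these counts are not a result about the members. Depth limits the 40 members below the floor, whose reads over the series had a median of 37.5.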

Other observations

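Members below the floor were not tested in the reported comparisons of levels, and their reads are given here; S100a3 and Sprr2a3 were chosen after their values were seen. S100a3, a gene known from the hair cuticle, had 235 reads in the 24 WT libraries and, in the other groups, 118 (EpiRE), 92 (RERE) and 78 (BRE). Sprr2a3 had 250 reads in WT beside 149 (RERE), 140 (EpiRE) and 115 (BRE). S100a8 had 85, 74 and 77 reads in WT, RERE and EpiRE, with reads in 19 to 21 of 24 libraries, and 42 in BRE with reads in 13 libraries. S100a9 had 29 reads in WT, 48 each in RERE and EpiRE, and 54 in BRE. With no filter on low values, where genes without a read in the series were called too, limma called S100a3, S100a8 and Sprr2a3 in BRE against WT, S100a3 in RERE against WT, and S100a8 in RERE and in EpiRE against BRE.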
